A study of Mus musculus with 10 samples.

Results

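Lung RNA of 5 mice that breathed room air was compared with a reference RNA hybridized to the same arrays, which shows what sets the unexposed lung apart from that reference. The 5 arrays are those that the sample labels call room air-exposed, out of 10 arrays in the series, and the smoke arrays were not used. All animals were female mice of the inbred strain BALB/c, and they served for 8 weeks as the unexposed group of a study of cigarette smoke in which each array held the lung of 1 animal. The labels do not give the make-up of the reference RNA. All values below are log2 ratios of lung over reference for genes on chromosomes 1 to 19, which were 18769 of the 27670 genes that the arrays could be read for. A ratio of 1 is a 2-fold difference, and a gene was called higher or lower when the adjusted p of limma's test against 0 was under 0.05 and the fold was over 2.

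By the medians of gene lists, genes of secretory airway cells, endothelium, alveolar type 2 and type 1 cells and lung fibroblasts were the highest relative to the reference, and genes of dividing cells, of ribosome assembly and of fibrillar collagen were lower. Scgb3a2, a secretoglobin of airway secretory cells, stood 8.07 ± 0.61 above the reference (SD, n = 5 arrays), a 269-fold difference. Il1rl1, the receptor for interleukin-33, stood at -5.76 ± 0.26, so the reference held 54.2-fold more of it. Across lists of genes, the medians ran from 4.82 for club and secretory airway cells to -2.57 for the cell cycle, beside 0.02 for all autosomal genes.

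The adult lung exchanges gas across alveoli lined by flat type 1 cells and by type 2 cells that secrete surfactant, a film of lipid and protein that lowers surface tension. Club cells and ciliated cells line the small airways, where they secrete protective proteins, modify inhaled chemicals and move mucus. A dense capillary bed lies against the alveolar wall, fibroblasts and elastic fibres hold it open, and resident macrophages clear inhaled particles. Most cells of an adult lung are not dividing.

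The labels name a single dye, Cy3, whereas each scanner file holds a red and a green channel, and genes of known sex or tissue were used to tell which RNA each channel holds. Ddx3y, on the Y chromosome and therefore absent from female mice, had a processed log2 signal of 2.40 in red and 9.99 in green. The scanner software rated that gene well above background on 0 of 5 arrays in red and on 5 of 5 in green. Eif2s3y had processed log2 signals of 2.72 in red and 9.81 in green, and Kdm5d had 4.31 and 8.22, with the same ratings, while Uty was rated above background in neither channel. Red is thus the channel without Y-linked signal, and green, the reference, is the channel with it.

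The markers of lung lay in the red channel. Sftpc, which encodes a surfactant protein of type 2 cells, had log2 ratios of 5.77, 5.83, 6.22, 5.43 and 5.93 on arrays 1 to 5 (adjusted p = 2.31e-08, limma). Scgb1a1, the main secretory protein of club cells, had 6.65, 6.70, 6.79, 6.72 and 6.65 on the same arrays (adjusted p = 1.70e-09). Ager, a receptor abundant on type 1 cells, had 4.88, 4.84, 5.12, 4.44 and 4.93. All 3 markers were higher in red on 5 of 5 arrays, which matches the label of lung tissue. Because the dyes were never exchanged, a dye effect of a single probe and a difference in RNA cannot be told apart.

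The deposited table of processed values does not match the scanner files by label. All 143751 values in its 5 columns labelled smoke equal, within 0.0001, the mean of both log2 channels computed from the room-air scanner file of the same number, against 143 of 142698 values in the columns labelled room air. The scanner files were used as they are assigned to the samples, and every value here rests on that assignment. The table holds no ratio of the channels, so it could not stand in for the scanner files.

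Of the 43379 spots on each array that were not controls, 71.7%, 67.8%, 71.7%, 76.7% and 68.5% were well above background for lung RNA on arrays 1 to 5, and 66.7%, 66.5%, 64%, 75.1% and 61.9% for the reference. Array 1 stood apart from the others. Across genes, which are not independent replicates, its ratios had correlations of 0.945 to 0.951 with those of the other arrays, whereas arrays 2 to 5 had 0.970 to 0.984 among themselves. On array 1, 279 genes were over 2-fold above the median of the other 4 arrays, beside 4, 10, 26 and 10 genes on arrays 2 to 5. Genes over 2-fold below that median numbered 7 on array 1 and 69, 8, 13 and 20 on arrays 2 to 5.

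Of the 18769 autosomal genes, 2701 were called higher in lung than in the reference (14.4%) and 1603 lower (8.54%), so that 22.9% were called in either direction. Of the genes called higher, 2696 had a positive ratio on 5 of 5 arrays, and of those called lower, 1591 had a negative ratio on 5 of 5. Without array 1, 2681 genes were called higher, of which 2624 were shared with the call on 5 arrays, and 1603 lower, of which 1541 were shared. The higher side also held the larger differences. A fold over 16 was reached by 236 genes called higher and by 33 called lower, and a fold over 64 by 22 and 0. When each array was centred on its median without loess, 3803 genes were called higher and 949 lower, and the median of all genes moved from 0.02 to 0.12, so the balance between both sides depends on the normalization within arrays.

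The 15 genes with the largest positive ratios among those well above background in both channels came from several gene lists. Members of the lists of secretory airway cells, alveolar cells, endothelium, lung fibroblasts, complement and neutrophils were included. No enrichment was tested among the 15 genes. Sftpd, a collectin of surfactant that binds microbes, had 7.82 ± 0.53, and Sec14l3, a lipid transfer protein, had 7.43 ± 0.53. Ptprb and Cdh5, a phosphatase and the cadherin of endothelial junctions, had 7.37 ± 0.41 and 6.65 ± 0.19. Calcrl, the receptor for adrenomedullin, had 6.98 ± 0.19, and Sparcl1, a secreted matrix protein, 7.35 ± 0.14. Every one of these genes was positive on 5 of 5 arrays, with adjusted p from limma of 1.13e-07 or smaller. Hc, which encodes complement component C5, had 7.04 ± 0.48, and S100a9, a calcium-binding protein of neutrophils, 6.65 ± 0.50. Mal2, Clic5, Limch1, Ackr2 and Itga8 made up the rest, at 7.51, 6.36, 6.34, 6.27 and 6.23. Clic5 is a chloride intracellular channel protein, a marker of type 1 cells, Itga8 an integrin of fibroblasts and Ackr2 a scavenging receptor for chemokines.

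**Figure D1:**
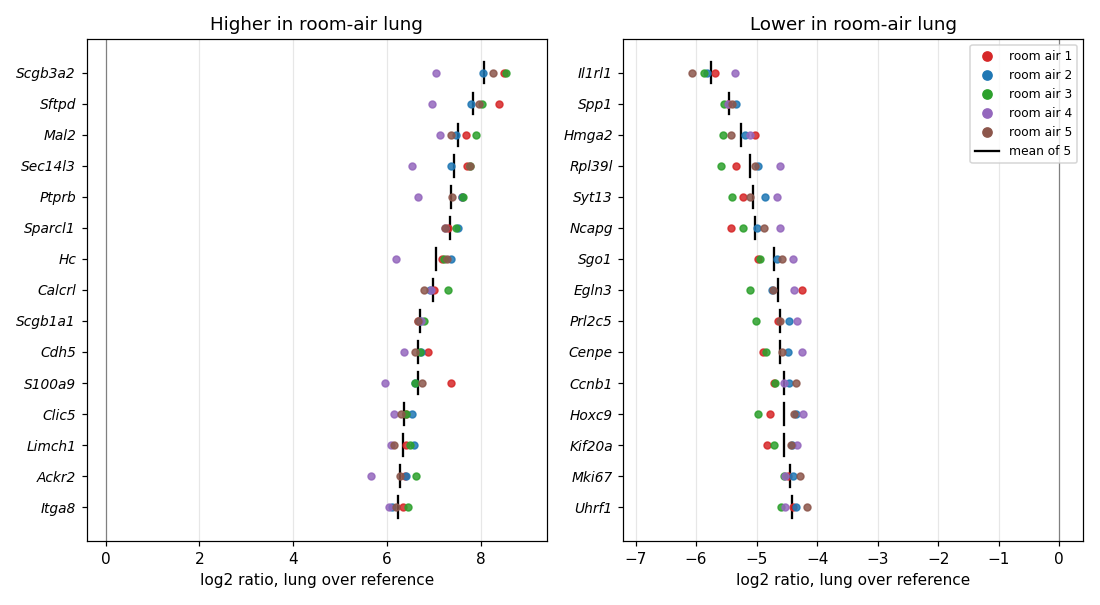
Log2 ratio of lung over reference (horizontal axis) for the 15 genes with the largest positive and the 15 with the largest negative mean among those well above background in both channels on all 5 arrays, each coloured point being 1 room-air array and each black bar the mean of 5. The higher genes run from 8.07 for Scgb3a2 to 6.23 for Itga8 and the lower genes from -5.76 for Il1rl1 to -4.41 for Uhrf1, with all points of a gene on 1 side of 0.

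The 15 genes with the largest negative ratios included Cenpe, Ccnb1 and Mki67 of the cell cycle list, and no enrichment was tested among them. Ncapg, a subunit of the condensin that compacts chromosomes, had -5.03 ± 0.31, and Sgo1, which protects the cohesion of sister chromatids, had -4.71 ± 0.25. Cenpe and Kif20a, motor proteins of mitosis, had -4.61 ± 0.27 and -4.54 ± 0.21. Ccnb1, the cyclin of entry into mitosis, had -4.56 ± 0.16, Mki67, the proliferation marker Ki-67, had -4.45 ± 0.11, and Uhrf1, which carries DNA methylation through replication, had -4.41 ± 0.17. Hmga2, a chromatin protein of embryonic and transformed cells, had -5.26 ± 0.22, and Hoxc9, a positional gene of the posterior body, -4.55 ± 0.31. Spp1, the secreted protein osteopontin, had -5.45 ± 0.08, and its 5 arrays lay between -5.54 and -5.34. Rpl39l, Syt13, Egln3 and Prl2c5 had -5.11, -5.05, -4.65 and -4.62. All 15 were negative on 5 of 5 arrays, with adjusted p from limma of 1.06e-07 or smaller.

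For genes that one channel did not show above background, a ratio is a lower bound. In 364 genes the lung signal was well above background on 5 arrays and the reference on none. The largest such bounds were at least 16.5-fold for Plbd1, at least 12.5-fold for Grp, which encodes a bombesin-like peptide of neuroendocrine cells, and at least 10.7-fold for Car8. Agr3, a protein of ciliated cells, was at least 10.4-fold higher in lung, and H2-Ea, a chain of MHC class II, at least 8.38-fold. Adgrl4, Slco4c1, Tmprss4, Cadps2 and Efcab10 followed with bounds between 8.22-fold and 6.33-fold. The reverse held for 73 genes, led by Defb41, a defensin, at least 5.85-fold lower in lung. Hoxa10, Dlx2, Dlx1 and Foxb1, transcription factors that pattern the embryo, were at least 5.49-fold, 5.41-fold, 5.10-fold and 3.97-fold lower. Hmmr and Esco2, which act in mitosis and in sister chromatid cohesion, were at least 4.06-fold and 3.83-fold lower, and Zfp979, Hao1 and Cpa6 at least 3.75-fold, 3.41-fold and 3.18-fold.

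The genes were grouped into 48 lists by cell type, tissue or function. Counts of called genes in a list can be read beside the 14.4% higher and 8.54% lower of all autosomal genes. In whole lung, fewer cells of a type and less RNA per cell cannot be told apart, so a list's ratio speaks of RNA amounts only.

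**Figure D2:**
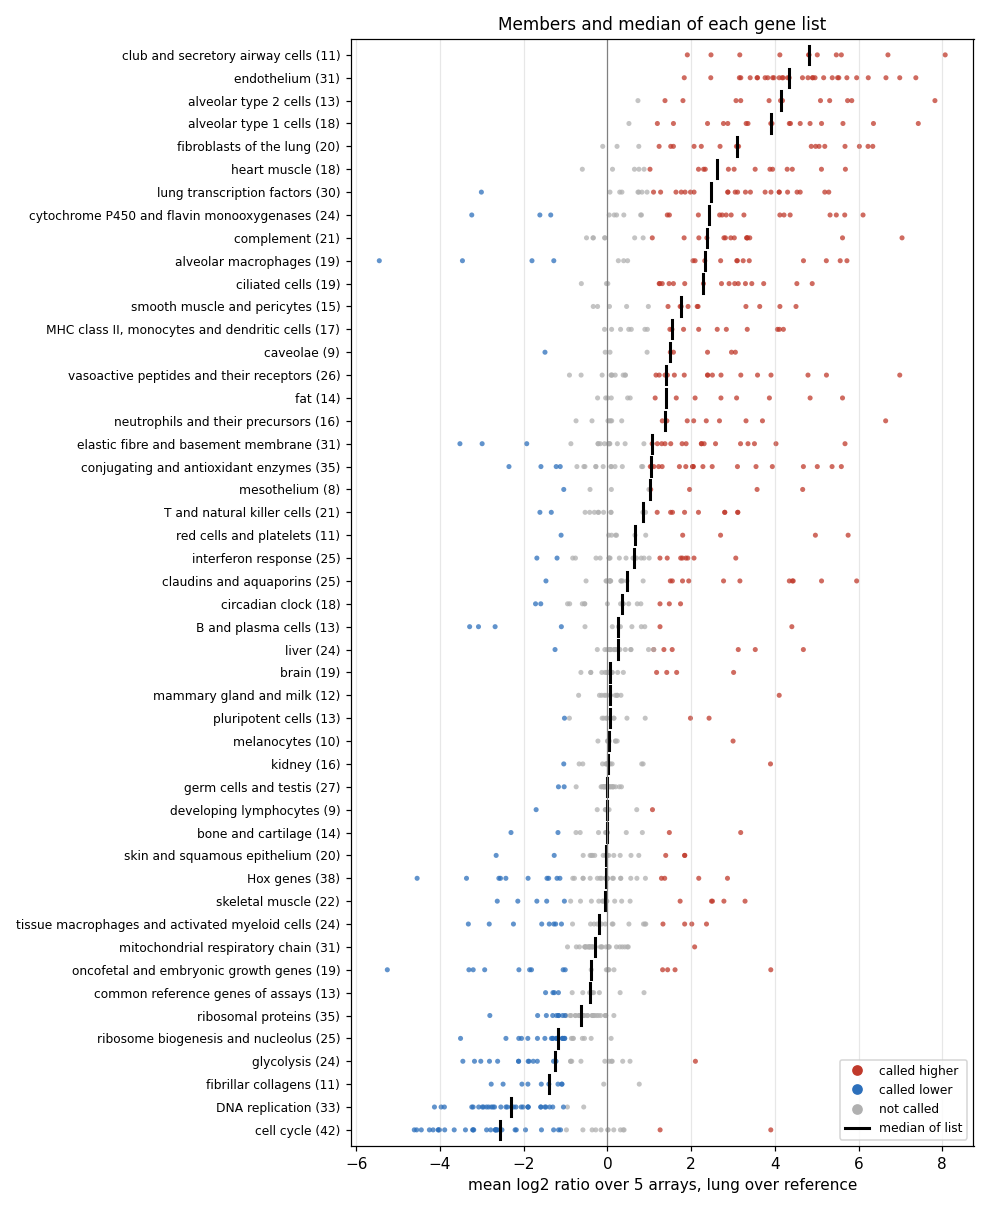
Mean log2 ratio of lung over reference over 5 arrays (horizontal axis) for each measured autosomal member of 48 gene lists, with the number of members in brackets, points coloured by call and a black bar at the median. Medians fall from 4.82 for club and secretory airway cells to -2.57 for the cell cycle, and many lists of tissues other than lung sit near the 0.02 of all autosomal genes. Some members of those lists were above background in neither channel.

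Of 13 measured genes of type 2 alveolar cells, 12 were called higher and 0 lower, with a median of 4.14. Beside Sftpc and Sftpd, Sftpa1, another surfactant collectin, had 5.31 ± 0.28, and Ctsh, a protease that processes surfactant proteins, had 5.74 ± 0.21. Abca3, the transporter that loads surfactant lipid into its storage organelles, was the smallest of the called genes at 1.38 ± 0.08. The list of type 1 cells had 17 of 18 genes called higher, 0 lower and a median of 3.92. In it Akap5, a kinase anchor, had 5.63 ± 0.22, Cldn18, a claudin of the alveolar tight junction, 5.12 ± 0.23, and Cav1, the main protein of caveolae, 2.39 ± 0.20.

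The secretory cells of the airway had 11 of 11 genes called higher, with the highest median of any list. Cyp2f2, a cytochrome P450 of club cells, had 5.47 ± 0.14, Aldh1a1, which makes retinoic acid, 5.59 ± 0.18, and Scgb3a1, a further secretoglobin, 4.82 ± 0.18. Bpifb1, an antimicrobial protein of the airway lining, was the lowest member at 1.91 ± 0.69, with 2.97 on array 1 and 1.13 to 2.06 on the others. Of the 19 genes of ciliated cells, 16 were called higher and 0 lower, with a median of 2.29, which was 4.00 with the scanner software's own ratios and 1.47 with a gene's probes averaged. Tppp3, a tubulin-binding protein, had 4.89 ± 0.25, Dynlrb2, a light chain of dynein, 4.53 ± 0.16, Tekt1, a filament protein of the ciliary axoneme, 3.73 ± 0.23, and Foxj1, the transcription factor that switches on motile cilia, 3.30 ± 0.37. Epithelial genes of both the alveolus and the airway were thus called higher in 56 of 61 cases.

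The DNA in front of some of these genes is shown because it holds letters bound by factors known from these cells. Promoter sequences, the 250 bases before the start, came from a RefSeq table on build GRCm38.p6, with the first listed start of each of 27025 genes. Among 13 motifs searched on both strands, CAAGTG, the core that NKX2-1 binds, was in 11.6% of all promoters, and GTTGCC, the core of the X box that RFX factors of ciliated cells bind, was in 10.5%. GTTGCC was found in 8 of the 16 promoters at hand for the ciliated list (50%) and in 2 of 15 for type 1 cells. Among other lists, it was in 3 of 8 for caveolae, 4 of 15 for neutrophils, 5 of 22 for glycolysis and 0 of 22 for germ cells. CAAGTG was found in 1 of 15 for type 1 cells (6.7%) and in 2 of 16 for ciliated cells (12.5%), near its share of all promoters, and too few promoters were at hand for the lists of type 2 and of club cells. The genes and motifs shown were picked after the values were seen, and a match is a description of the letters only. Capitals mark the motif or its reverse complement, CAAGTG in the first 3 and GTTGCC in the last 2, all written 5′ to 3′ on the strand of the gene. Sftpa1 lies at chr14:41131538-41131787 (plus strand), Cyp2f2 at chr7:27119705-27119954 (plus strand), Scgb3a1 at chr11:49663345-49663594 (plus strand), Dynlrb2 at chr8:116504765-116505014 (plus strand) and Tekt1 at chr11:72361883-72362132 (minus strand).
Sftpa1: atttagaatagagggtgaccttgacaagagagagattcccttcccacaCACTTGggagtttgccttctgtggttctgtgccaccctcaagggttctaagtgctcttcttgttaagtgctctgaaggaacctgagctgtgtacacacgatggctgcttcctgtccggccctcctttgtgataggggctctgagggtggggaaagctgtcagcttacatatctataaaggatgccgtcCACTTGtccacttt
Cyp2f2: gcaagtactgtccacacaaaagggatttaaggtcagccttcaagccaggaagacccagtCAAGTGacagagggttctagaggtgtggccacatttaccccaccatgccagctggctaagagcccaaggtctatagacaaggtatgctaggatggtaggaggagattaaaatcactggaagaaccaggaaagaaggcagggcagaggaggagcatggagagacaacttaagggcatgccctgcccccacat
Scgb3a1: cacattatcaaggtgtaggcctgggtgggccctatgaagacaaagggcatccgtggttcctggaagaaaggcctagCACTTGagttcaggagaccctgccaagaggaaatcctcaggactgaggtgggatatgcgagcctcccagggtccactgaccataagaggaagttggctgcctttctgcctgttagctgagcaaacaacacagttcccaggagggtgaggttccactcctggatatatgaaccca
Dynlrb2: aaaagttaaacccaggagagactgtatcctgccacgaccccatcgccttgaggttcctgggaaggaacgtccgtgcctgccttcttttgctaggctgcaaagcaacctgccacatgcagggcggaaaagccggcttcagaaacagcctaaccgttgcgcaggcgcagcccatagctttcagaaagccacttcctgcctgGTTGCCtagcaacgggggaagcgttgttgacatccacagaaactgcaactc
Tekt1: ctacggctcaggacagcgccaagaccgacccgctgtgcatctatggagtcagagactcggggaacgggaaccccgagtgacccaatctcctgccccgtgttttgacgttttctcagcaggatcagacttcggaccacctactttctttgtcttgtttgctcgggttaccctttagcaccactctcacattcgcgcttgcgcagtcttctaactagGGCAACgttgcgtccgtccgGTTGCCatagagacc

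All measured genes of the endothelium, 31 of 31, were called higher, with a median of 4.34. Besides Ptprb, Calcrl and Cdh5, Kdr, the main receptor for vascular endothelial growth factor, had 5.37 ± 0.12, and Pecam1, an adhesion molecule at endothelial contacts, had 3.15 ± 0.22. The lowest members were still called, with Tie1, a receptor kinase, at 2.47 ± 0.12 and Nos3, the endothelial nitric oxide synthase, at 1.84 ± 0.20. Of 26 genes for vasoactive peptides and their receptors, 16 were called higher and 0 lower, with a median of 1.40. Adrb1, a beta-adrenergic receptor, had 5.23 ± 0.12, Ramp2, the partner that turns Calcrl into an adrenomedullin receptor, 4.79 ± 0.21, Ednra, a receptor for endothelin, 3.91 ± 0.11, and Ace, the angiotensin-converting enzyme of lung capillaries, 3.19 ± 0.21.

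Lung fibroblast genes were called higher in 17 of 20 cases and lower in 0, with a median of 3.1. Ces1d, a carboxylesterase, had 6.02 ± 0.41, Mfap4, a protein of elastic microfibrils, 5.68 ± 0.29, and Pdgfra, a growth factor receptor of the alveolar fibroblast, 1.24 ± 0.04, a call lost with its probes averaged, at 0.73. Smooth muscle and pericytes had 10 of 15 genes higher and 0 lower, with a median of 1.76, among them Myh11, the smooth muscle myosin, at 4.12 ± 0.26, Cnn1, an actin-binding protein, at 3.64 ± 0.14 and Mylk, the kinase that triggers contraction, at 3.31 ± 0.06. The mesothelium, which covers the lung, had 4 of 8 genes higher and 1 lower, with a median of 1.01. Its Rspo1, a secreted enhancer of Wnt signals, had 4.66 ± 0.29, and its Wt1, a transcription factor, -1.04 ± 0.22, a call that was lost without array 3 at -0.97 and with median centring in place of loess at -0.74.

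Genes of heart muscle were higher as well, 13 of 18 with 0 lower and a median of 2.61. In mice, heart-type muscle extends from the left atrium along the pulmonary veins into the lung. Myl7, an atrial light chain of myosin, had log2 ratios of 5.78, 5.64, 5.87, 5.43 and 5.71 on arrays 1 to 5, Sln, an atrial regulator of the calcium pump, 5.11 ± 0.27, and Myh6, a heavy chain of cardiac myosin, 4.29 ± 0.30. The medians of the list were 2.90, 2.60, 3.01, 2.34 and 2.15 on arrays 1 to 5, while 5 of the 18 genes were not called and the lowest, Nppb, had -0.60, or with the scanner ratios -1.52, which was called lower. Ryr2, the calcium release channel of heart muscle, was above background in lung on 1 array only. The part of vein muscle or of heart tissue in these ratios was not tested.

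Matrix genes split by type. Of 31 genes of elastic fibres and basement membrane, 16 were called higher and 3 lower, with a median of 1.07. Lama4, a laminin chain of vessel basement membrane, had 4.03 ± 0.34, Mfap2, a microfibril protein, 3.51 ± 0.11, Col4a3, a collagen chain of the alveolar basement membrane, 3.36 ± 0.25, and Eln, elastin itself, 2.24. Fbln2 and Lox, a fibulin and the enzyme that crosslinks collagen and elastin, had -3.52 ± 0.18 and -2.99 ± 0.25. Of 11 fibrillar collagens, 0 were called higher and 9 lower, with a median of -1.40. Col1a1 and Col1a2, the chains of type I collagen, had -2.78 ± 0.34 and -2.04 ± 0.34, Col5a1 had -2.49 ± 0.13 and Col3a1 -1.40 ± 0.44. With a gene's probes averaged Col3a1 was no longer called, at -0.67, which was then also the median of the list. By its median, elastic and sheet-forming matrix thus lay on the other side of 0 from the rope-forming collagens.

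Barrier and membrane genes were more mixed. Of 25 claudins and aquaporins, 11 were called higher, 1 lower and 13 neither, with a median of 0.47, or 2.01 with the scanner ratios. Cldn5, the claudin of endothelium, had 5.95 ± 0.10, Cldn3, of epithelium, 4.44 ± 0.34, Aqp5, the water channel of type 1 cells, 4.35, Aqp1, that of capillaries, 3.17, and Aqp8 -1.47 ± 0.20. Of 9 caveola genes, 5 were higher and 1 lower, with a median of 1.5. Cavin2, which shapes caveolae in endothelium, had 2.96 ± 0.12 and Cavin1, the general coat protein, 1.5 ± 0.19, while the muscle forms split, Cav3 at 3.06 ± 0.36 and Cavin4 at -1.49 ± 0.13. With a gene's probes averaged Cavin1 was no longer called, at 0.53, and the median of the caveola genes was 0.55.

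Transcription factors that build and maintain the lung were called higher in 22 of 30 cases and lower in 1, with a median of 2.47, or 3.90 with the scanner ratios. Foxa2, a factor of endoderm, had log2 ratios of 5.26, 5.40, 5.32, 5.15 and 5.31 on arrays 1 to 5, which lie close together. Tcf21, of lung mesenchyme, had 5.19 ± 0.19, Hopx, of type 1 cells, 4.61 ± 0.17, Tbx2, of lung mesenchyme, 4.53 ± 0.15, and Nkx2-1, the factor that marks lung and thyroid, 3.42 ± 0.17. The exception was Sox9, a factor of the embryonic lung tip and of cartilage, at -3.01 ± 0.30.

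Hox genes, which give cells their position along the body axis and lie in 4 clusters in the order of that axis, fell on both sides of 0. Of 38 measured, 4 were called higher, 10 lower and 24 neither, and the median was -0.04, or -0.49 with the scanner ratios. Of all autosomal genes, 14.4% were called higher, near the share of Hox genes, and 8.54% lower. The 4 higher genes had low numbers, Hoxb5 at 2.87 ± 0.10, Hoxa5, which lung development needs, at 2.18 ± 0.23, Hoxa4 at 1.37 ± 0.15 and Hoxb2 at 1.29 ± 0.08. With a gene's probes averaged in place of taking the brightest, Hoxa4 and Hoxb2 were no longer called, at 0.78 and 0.68. The 10 lower genes had numbers from 6 upward, among them Hoxc9, Hoxc6 at -3.37 ± 0.30, Hoxb9 at -2.59 ± 0.33 and Hoxa9 at -1.40 ± 0.06. No Hox gene numbered 6 or above was called higher, and none numbered 5 or below was called lower, a division noticed after the values were seen.

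**Figure D3:**
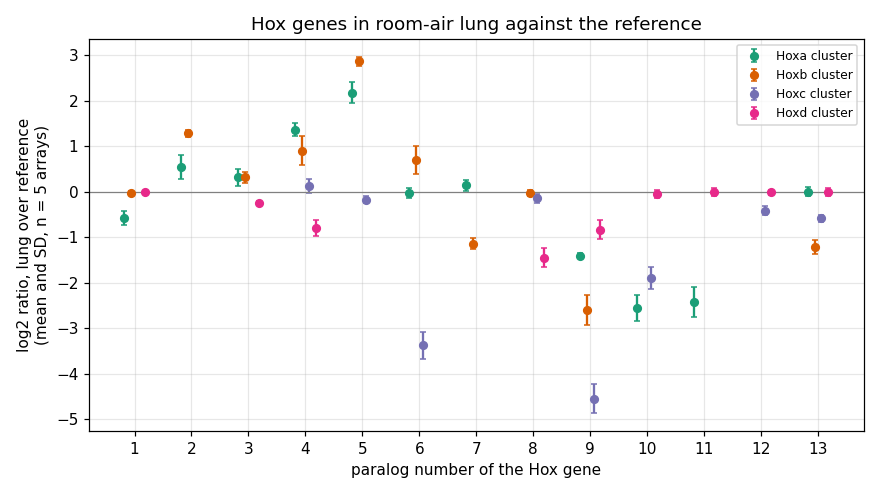
Log2 ratio of lung over reference (vertical axis, mean and SD of 5 arrays) for 38 Hox genes, placed by paralog number (horizontal axis) and coloured by cluster. The highest is Hoxb5 at 2.87 and the lowest Hoxc9 at -4.55, and 5 of the genes near 0 were above background in neither channel.

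Enzymes that act on inhaled chemicals were strongly represented. Of 24 cytochrome P450 and flavin monooxygenase genes, 15 were called higher and 3 lower, with a median of 2.43, or 1.46 with probes averaged. Cyp4b1, a lung P450 that oxidizes foreign compounds, had 5.67 ± 0.31. Cyp1a1, which aryl hydrocarbons induce, had 3.42, 5.40, 5.01, 6.37 and 6.38 on arrays 1 to 5, although the reference was above background for it on 3 arrays only. Array 1 was lowest for Cyp1a1, and the mean without it was 5.79. Cyp1b1, another target of the same receptor, had -1.61 ± 0.27, a call lost with its probes averaged at -0.93, and Cyp51, of cholesterol synthesis, -1.35 ± 0.24. Conjugating and antioxidant enzymes had 19 of 35 genes higher and 4 lower, with a median of 1.05. Sult1a1, a sulfotransferase, had 5.37 ± 0.28, Gsta3, a glutathione transferase, 4.68 ± 0.13, and Nqo1, a quinone reductase, -2.35 ± 0.07.

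Complement genes were called higher in 14 of 21 cases and lower in 0, with a median of 2.38, or 1.46 with probes averaged. Cfd, the protease that starts the alternative pathway, had 5.62 ± 0.54, C2 3.40 ± 0.15 and C1qa, a chain of the recognition molecule C1q, 3.35 ± 0.20. C3, the central component, had 1.83 ± 0.66. Cfd is also a product of fat cells, and the list of fat genes had 8 of 14 members higher and 0 lower, with a median of 1.39, or 2.71 with the scanner ratios. Its medians on arrays 1 to 5 were 2.09, 1.12, 1.90, 1.01 and 0.80. Cidec and Fabp4, lipid droplet and lipid carrier proteins, had 4.84 ± 0.33 and 3.87 ± 0.73, and Fabp4 ran from 4.79 on array 1 to 2.83 on array 5.

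Macrophage genes pointed both ways. Of 19 genes of alveolar macrophages, 12 were called higher and 4 lower, with a median of 2.33. Lyz2, the lysozyme of myeloid and type 2 cells, had 5.72 ± 0.22, Ear1, a ribonuclease of these macrophages, 5.23 ± 0.30, and Marco, a scavenger receptor for particles, 3.24, with 4.86 on array 1 and 2.49 to 3.32 on the others. The 4 lower genes were Spp1, Cd68, Gpnmb and Trem2, the last 2 being membrane proteins of lipid-laden macrophages. Gpnmb had -3.46 ± 0.17, Trem2 -1.80 ± 0.18 and Cd68 -1.28 ± 0.11. Genes of tissue macrophages and activated myeloid cells had 4 of 24 higher and 8 lower, with a median of -0.19 that turned to 0.08 when the arrays were centred on their medians and was -0.40 with the scanner ratios. Fcgr3, a receptor for antibody, had 2.37 ± 0.26 and Ptgs2, the inducible cyclooxygenase, -1.57 ± 0.20.

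Of 17 genes of MHC class II, monocytes and dendritic cells, 10 were called higher and 0 lower, with a median of 1.54, or 2.65 with the scanner ratios. H2-Ab1 and H2-Aa, the chains of an antigen-presenting molecule, had 4.20 ± 0.10 and 4.11 ± 0.09. Of 21 genes of T and natural killer cells, 9 were higher and 2 lower, with a median of 0.85, and of 13 of B and plasma cells 2 were higher and 4 lower, with a median of 0.26. These medians of T and natural killer cells and of B and plasma cells were 3.47 and 1.73 with the scanner ratios. Cd3d, of the T cell receptor complex, had 2.80 ± 0.27, whereas Cd3e and Cd3g, chains of the same complex, were not called, at -0.21 and -0.31. The 2 lower genes of T and natural killer cells were Tcf7 at -1.34 ± 0.14 and Thy1, which fibroblasts and neurons also make, at -1.61 ± 0.14. Ighm, the heavy chain of IgM, had 4.41 ± 0.30, but Jchain and Mzb1, which antibody-secreting cells make, had -2.68 ± 0.32 and -3.29 ± 0.26. The share called higher in B and plasma cells lay near the 14.4% of all autosomal genes, of which 8.54% were called lower. Genes of developing lymphocytes had 1 of 9 higher and 1 lower, near both of these shares. Their median was -0.02, or 0.04 with the scanner ratios and -0.11 with median centring. Dntt, which diversifies antigen receptors in those cells, had -1.70 ± 0.48, a call lost with its probes averaged at -0.83, and Rag1 and Rag2, which cut the receptor genes, were not above background in either channel on any array.

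Blood genes and interferon-response genes completed the immune lists. Red cells and platelets had 4 of 11 genes higher and 1 lower, with a median of 0.66, or 1.48 with the scanner ratios, including Hbb-bt, a beta globin, at 5.75 ± 0.18 and Pf4, a platelet chemokine, at -1.11 ± 0.36, a call lost with median centring at -0.67. Of other platelet genes, Ppbp was called higher at 1.80 ± 0.27, and Gp9 and Itga2b were not called, at 0.92 and 0.20. Neutrophils and their precursors had 9 of 16 higher and 0 lower, with a median of 1.37, or 2.82 with the scanner ratios and 0.92 without array 1. Ltf, a protein of secondary granules whose reference signal was above background on 4 arrays, had 3.70 ± 0.86, and Il1b, a cytokine, 3.31 ± 1.49, with 5.96 on array 1 and 2.41 to 2.85 on the others. The interferon-response list had 8 of 25 genes higher and 2 lower, with a median of 0.64, or 1.03 with median centring and 0.40 without array 1, and Psmb9, a subunit of the immunoproteasome, had 2.07 ± 0.10.

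Genes of dividing cells formed the low end. Of 42 cell cycle genes, 2 were called higher and 29 lower, with a median of -2.57. Top2a, the topoisomerase that untangles chromosomes in mitosis, had -4.25 ± 0.31. Inhibitors of cyclin-dependent kinases lay on both sides, with Cdkn1c at 3.90 ± 0.31 and Cdkn2b at 1.26 ± 0.21 the 2 higher genes, Cdkn2a at -2.52 ± 0.25 and Cdkn2c at -1.12 ± 0.27 among the lower ones, and Cdkn1a and Cdkn1b not called at -0.37 and 0.31. The call of Cdkn2c was lost with median centring, at -0.67. Of 33 DNA replication genes, 0 were higher and 31 lower, with a median of -2.29. Mcm6, a subunit of the replicative helicase, had -4.13 ± 0.16, Cdt1, which loads that helicase, -3.97 ± 0.16, Rrm2, which makes deoxynucleotides, -3.89 ± 0.15, and Pcna, the sliding clamp, -1.47 ± 0.17. The share called lower in the replication list stood beside 8.54% for all autosomal genes.

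Promoters of 4 of these genes are shown because CCAAT, the letters bound by NF-Y, recurs in them. CCAAT was in 34.5% of all promoters and in 16 of the 27 at hand for the replication list (59.3%), and its share was at least 50% also for the circadian clock (11 of 16), caveolae (5 of 8), red cells and platelets (5 of 9), conjugating enzymes (16 of 29) and alveolar macrophages (8 of 16). Other motifs were also frequent in the replication list. CCGGAAGT was in 22.2% of its promoters (all promoters 2.93%), TTTCCCGC in 11.1% (0.929%) and TTTGGCGC in 7.4% (0.437%). TATAAA, at 7.4% (13.0%), and GTTAAT, at 0% (6.52%), went the other way. The table covered 79.0% of the autosomal genes, 75.9% of those called higher and 78.5% of those called lower, each short of the 80% that was asked of any set, so motifs were not compared over all called genes. Top2a held 6 matches, Mki67 3, Ccnb1 2 and Mcm6 2, in capitals on either strand, and only CCAAT is marked. Top2a, Mki67 and Ccnb1 belong to the cell cycle list, for which too few promoters were at hand. The share of the replication list does not cover them. These genes and this motif were picked after the values were seen, and a match describes the letters only. Mcm6 lies at chr1:128359706-128359955 (minus strand), Mki67 at chr7:135716380-135716629 (minus strand), Top2a at chr11:99024190-99024439 (minus strand) and Ccnb1 at chr13:100786487-100786736 (minus strand).
Mcm6: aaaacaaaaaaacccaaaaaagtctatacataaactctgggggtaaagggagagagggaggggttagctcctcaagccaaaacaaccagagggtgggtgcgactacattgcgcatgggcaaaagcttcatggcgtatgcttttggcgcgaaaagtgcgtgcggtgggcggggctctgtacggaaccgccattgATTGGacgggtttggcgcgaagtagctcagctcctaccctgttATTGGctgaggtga
Mki67: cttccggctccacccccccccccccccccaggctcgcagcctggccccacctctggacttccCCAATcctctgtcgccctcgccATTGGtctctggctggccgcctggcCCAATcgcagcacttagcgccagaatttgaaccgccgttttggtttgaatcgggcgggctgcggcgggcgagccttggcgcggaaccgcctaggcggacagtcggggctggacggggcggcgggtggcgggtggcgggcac
Top2a: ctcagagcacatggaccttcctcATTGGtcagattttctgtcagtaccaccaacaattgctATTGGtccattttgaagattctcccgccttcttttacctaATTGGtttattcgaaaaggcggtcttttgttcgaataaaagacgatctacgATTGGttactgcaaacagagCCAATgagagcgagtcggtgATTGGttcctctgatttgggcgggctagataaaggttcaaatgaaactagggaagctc
Ccnb1: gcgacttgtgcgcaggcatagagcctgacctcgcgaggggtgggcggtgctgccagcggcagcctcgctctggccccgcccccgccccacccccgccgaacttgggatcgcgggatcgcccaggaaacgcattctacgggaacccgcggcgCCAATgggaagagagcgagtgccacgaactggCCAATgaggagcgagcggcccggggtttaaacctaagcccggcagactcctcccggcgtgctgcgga

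The lists of ribosome biogenesis, ribosomal proteins and glycolysis held more genes called lower than higher, although 26 of 35 ribosomal proteins were called neither. Of 25 genes of ribosome biogenesis and the nucleolus, 0 were called higher and 18 lower, with a median of -1.19, led by Myc, a transcription factor that drives growth, at -3.51 ± 0.41 and Npm1, a nucleolar chaperone, at -2.42 ± 0.12. Of 35 ribosomal proteins, 0 were higher and 9 lower, with a median of -0.63, or -0.33 with the scanner ratios, and Rpl14 had -2.81 ± 0.16. Glycolysis had 1 of 24 genes higher and 13 lower, with a median of -1.26. Eno1, the general enolase, had -3.45 ± 0.16, and Slc2a1, a glucose transporter, -3.17 ± 0.28, whereas Ldhb, a subunit of lactate dehydrogenase, had 2.10 ± 0.21. The mitochondrial respiratory chain had 1 of 31 genes higher and 0 lower, and its median of -0.29 turned to 0.05 when the arrays were centred on their medians. Of 13 genes often taken as references in assays, 0 were higher and 4 lower, with a median of -0.43, or -0.23 with median centring, and Gusb, a lysosomal enzyme, had -1.48 ± 0.06.

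Genes of embryonic growth were divided. Of 19 oncofetal and embryonic growth genes, 4 were called higher and 9 lower, with a median of -0.39 that was -1.26 with the scanner ratios and -0.03 with the probe brightest in red. Dlk1, an imprinted inhibitor of differentiation, had -3.31 ± 0.13, and Hmga1, a relative of Hmga2, -3.21 ± 0.16, while Cdkn1c, imprinted and an inhibitor of growth, and Plagl1, imprinted too, were higher, the latter at 1.62 ± 0.48, a call lost with its probes averaged at 0.95. Pluripotent cell genes had 2 of 13 higher and 1 lower, with a median of 0.06, or 0.22 with the scanner ratios, and of 18 circadian clock genes 3 were higher and 2 lower, with a median of 0.34, or 0.17 with probes averaged and 0.52 with median centring. The shares of both lists lay near the 14.4% higher and 8.54% lower of all autosomal genes. Klf4, which lung endothelium and epithelium also make, had 2.43 ± 0.17. Per2, a repressor in the clock, had 1.75 ± 0.20, and Dbp and Nr1d1, outputs of the clock with strong daily cycles, had -1.59 ± 0.57 and -1.72 ± 0.29, the latter's call being lost with probes averaged at -0.59.

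The medians of 9 lists of other tissues lay between -0.07 and 0.26, and those of brain, germ cells, kidney and skin changed sign under some alternative. The shares called can be read beside the 14.4% higher and 8.54% lower of all autosomal genes. Some members were above background in neither channel on any array, where a ratio near 0 reflects missing signal and not equal amounts. These were 6 of 27 genes for germ cells, 5 of 20 for skin, 3 of 10 for melanocytes and 3 of 14 for bone and cartilage. Liver, skeletal muscle, brain, kidney and mammary gland had 2 each, beside 1937 of all 18769 autosomal genes. The liver list had 6 of 24 genes higher and 1 lower, with a median of 0.26, or 1.28 with the scanner ratios, and Trf, the iron carrier transferrin, had 4.68 ± 0.32 but Afp, the fetal albumin, -1.25 ± 0.31, a call lost with median centring at -0.87. Skeletal muscle had 5 of 22 higher and 5 lower, with a median of -0.07, or -0.48 with the scanner ratios, split between Mb, myoglobin, at 3.29 ± 0.23 and Chrna1, the muscle acetylcholine receptor, at -2.63 ± 0.37. Skin and squamous epithelium had 3 of 20 higher and 2 lower, with a median of -0.02, and Sprr1a, a protein of the cornified envelope, had -2.66 ± 0.28. Bone and cartilage had 2 of 14 higher and 2 lower, with a median of -0.02, or -0.29 with the scanner ratios, where Postn, a matrix protein that lung also makes, had 3.18 ± 0.14 and Runx2, the bone master factor, -2.30 ± 0.18. Brain had 4 of 19 higher and 0 lower, with a median of 0.07, or 0.69 with the scanner ratios, and Gria1, a glutamate receptor, had 3.01 ± 0.26. Kidney had 1 of 16 higher and 1 lower, with a median of 0.02, or 0.21 with the scanner ratios, melanocytes 1 of 10 and 0, with 0.03, and the mammary gland 1 of 12 and 0, with 0.07. The single higher genes there were Cdh16, a cadherin, at 3.90 ± 0.23, Mlana, a melanosome protein, at 3.00 ± 0.22, and Elf5, an epithelial factor that lung also makes, at 4.10 ± 0.24, with the reference above background for it on 3 arrays. Germ cells and testis had 0 of 27 higher and 2 lower, with a median of 0.00.

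The lungs differed little from each other in most genes. The median SD over the 5 arrays was 0.124 for all autosomal genes and 0.146 for the 12899 genes well above background in both channels on all arrays, with a 90th percentile of 0.303 among the latter. Array 1 was the highest in all 10 of the genes with the largest SD, which were not tested for a shared function. Saa3, an acute-phase apolipoprotein, had 3.50 on array 1 and -2.71, -3.12, -2.56 and -2.94 on arrays 2 to 5. Cxcl10, a chemokine that interferon induces, had 3.32 and then -1.51, -2.03, -1.79 and -1.01. Ch25h, a cholesterol hydroxylase that interferon induces, had 4.51 and then 0.53, 0.45, 0.24 and 0.45. On these genes array 1 did not overlap with the other 4 arrays.

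The chemokines Cxcl1, Ccl2, Ccl4 and Ccl7, which draw neutrophils and monocytes, had 1.28, -0.03, 1.02 and 0.09 on array 1, and their means without it were -3.65, -4.14, -3.06 and -3.89. Acod1, which makes itaconate in activated macrophages, and Mt2, a metallothionein, had 0.37 and 0.76 on array 1 and -4.19 and -3.40 as means without it. On 5 arrays Saa3, Cxcl10, Saa1 and Ch25h were not called, with adjusted p of 0.228, 0.562, 0.797 and 0.145 from limma. Without array 1, Saa3, Cxcl10 and Saa1 were called lower at -2.83, -1.59 and -1.22. The calls of Cxcl1 and Ccl4 were lost when any of arrays 2 to 5 was left out, and kept without array 1.

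**Figure D4:**
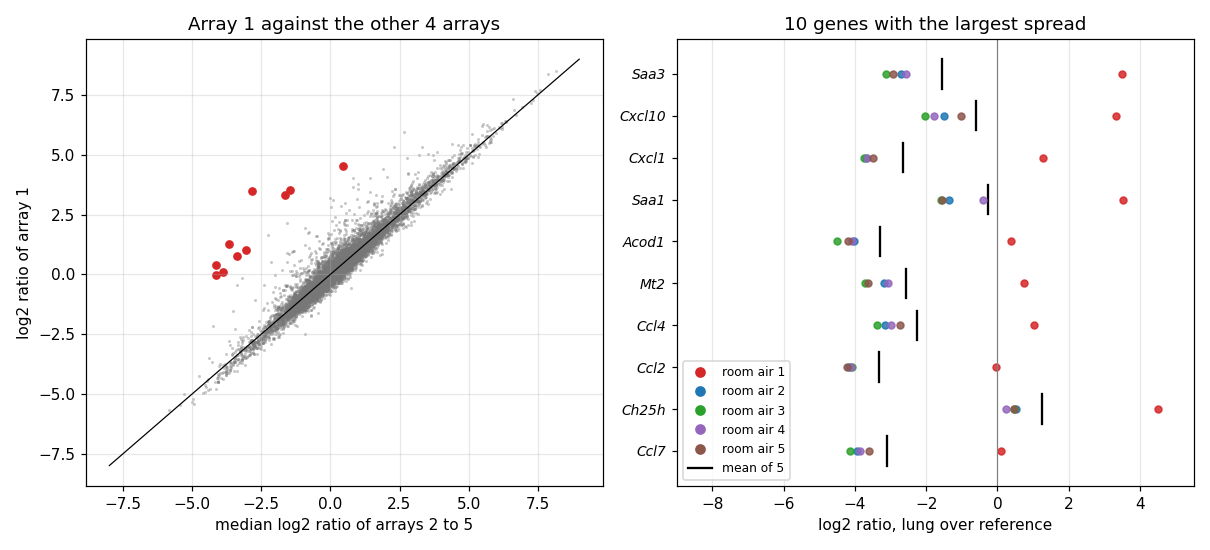
Left, log2 ratio of array 1 (vertical axis) against the median of arrays 2 to 5 (horizontal axis) for genes well above background in both channels, with the 10 genes of largest SD in red and a line of equality. Right, log2 ratio of those 10 genes on each array, where array 1 lies highest for each, as for Saa3 at 3.50 against -3.12 to -2.56.

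Of the immune lists, 3 stood apart on array 1. Neutrophil genes had a median of 2.79 on array 1 and of 0.83 to 0.99 on the others, and the list's median without array 1 was 0.92 in place of 1.37. Il1b had 5.96 on array 1 and 2.41 to 2.85 on the others. Lcn2, a protein of neutrophils and inflamed epithelium, had 4.03 and then 0.51 to 0.92, and its call was lost without array 1 at 0.77, as also without any other array, at 1.55 to 1.65. Interferon-response genes had a median of 1.49 on array 1 and of 0.18 to 0.53 on the others, which made 0.40 without array 1 in place of 0.64, and activated myeloid genes 0.76 and -0.33 to -0.13. The medians of 4 other immune lists lay closer together. Alveolar macrophages had a median of 2.28 on array 1 and of 2.35 to 2.52 on the others, B and plasma cells 0.16 and 0.23 to 0.32, T and natural killer cells 0.73 and 0.71 to 1.03, and MHC class II, monocytes and dendritic cells 1.85 and 1.02 to 1.78. Members of the last list still stood apart, with Ccl17, a chemokine of dendritic cells, at 3.79 on array 1 and 0.90 to 1.04 on the others, and its call was lost without array 1 at 0.98 and with the scanner ratios at 1.54. Ccr2, a receptor of monocytes, had 3.22 and 1.84 to 2.07, but these ratios are only lower bounds, since the reference was above background on 0 arrays. Fibrillar collagens went the other way, with a median of -2.05 on array 1 and of -1.43 to -1.15 on the others, and Col3a1 had -2.16 and then -1.35 to -1.10. Among lists of lung structure, type 1 cells had medians of 3.87 to 3.95 over the 5 arrays, type 2 cells of 3.84 to 4.25, club and secretory cells of 4.63 to 5.31, ciliated cells of 1.98 to 2.55 and fibroblasts of 2.79 to 3.31. Array 1 was the highest of these for type 2 and for club and secretory cells. Why array 1 differs was not tested, and the labels name nothing that sets its animal apart.

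Promoters of a pair of these genes are shown because both hold the NF-kappaB motif, which 7.01% of all promoters held on either strand and 1 of the 15 at hand for the neutrophil list. Among other lists it was in 4 of 20 for cytochrome P450, 4 of 22 for germ cells, 4 of 29 for conjugating enzymes and 0 of 16 for ciliated cells. Too few promoters were at hand for the interferon and activated myeloid lists. The pair was picked after the values were seen, and a match describes the letters only. A part of NF-kappaB on array 1 was not tested. Cxcl10 lies at chr5:92348890-92349139 (minus strand) and Cxcl1 at chr5:90890995-90891244 (plus strand), with the motif in capitals.
Cxcl10: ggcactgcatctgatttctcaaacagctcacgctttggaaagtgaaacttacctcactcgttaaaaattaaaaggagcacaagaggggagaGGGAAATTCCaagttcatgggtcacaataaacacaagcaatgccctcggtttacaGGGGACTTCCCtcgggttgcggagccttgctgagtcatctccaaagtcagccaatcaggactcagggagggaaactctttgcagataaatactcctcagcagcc
Cxcl1: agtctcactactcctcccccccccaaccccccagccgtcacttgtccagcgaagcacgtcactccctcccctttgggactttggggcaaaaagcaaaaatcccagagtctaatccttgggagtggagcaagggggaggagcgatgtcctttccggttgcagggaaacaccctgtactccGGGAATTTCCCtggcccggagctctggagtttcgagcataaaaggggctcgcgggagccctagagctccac

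Array 4 departed in a smaller way, being the lowest array for 13 of the 15 genes with the largest positive ratios. Ptprb had 6.66 on array 4 and 7.39 to 7.60 on the others, and Hc had 6.19 and 7.16 to 7.36. The median of conjugating and antioxidant enzymes was 0.76 on array 4 and 1.08 to 1.20 on the others. Array 4 also had the largest share of spots well above background in both channels, and the part of that in its ratios was not tested.

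**Figure D5:**
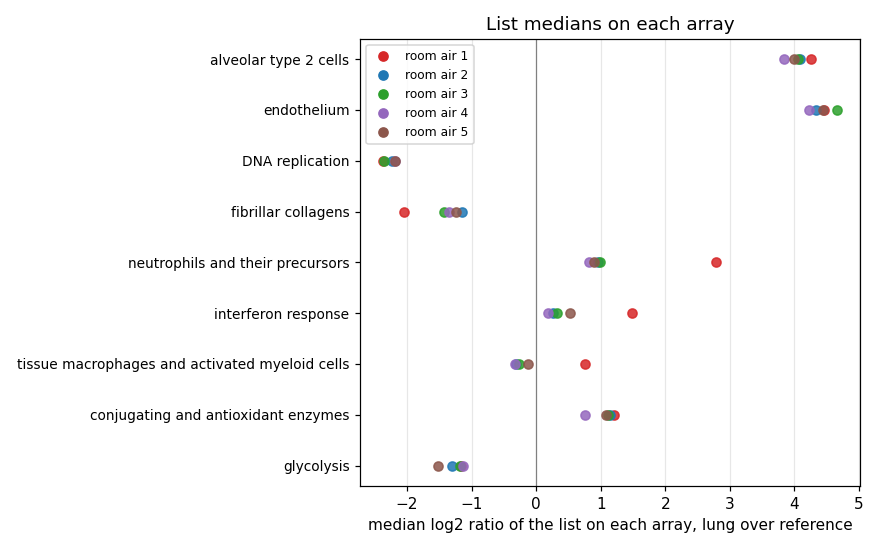
Median log2 ratio of lung over reference (horizontal axis) of 9 gene lists on each of the 5 arrays, each coloured point being 1 array. Array 1 lies apart at 2.79 for neutrophils, 1.49 for the interferon response and 0.76 for activated myeloid cells, and with the other arrays for endothelium and DNA replication.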

How the data were processed

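Lung RNA of 5 room-air mice was measured on 2-colour arrays, 1 array per animal, with samples grouped by their labels. Per the file headers, Agilent Feature Extraction 9.5.3.1 gave the intensity of each spot and of its local background in both channels, flags, and a log10 ratio of red over green, while the labels name version 9.1. In the processed table that the authors deposited, values are log2, and its column medians run from 7.34 to 8.06.

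Mean intensities were corrected with normexp in limma 3.58.1 (R 4.3.3) and an offset of 50, taking the local background median. Control spots were dropped, ratios were normalized by loess within arrays, spots with an outlier flag (83 to 141 per array) were set missing, and replicate spots were averaged per probe. The 41174 probes were fitted with lmFit and eBayes, two-sided against 0, with Benjamini-Hochberg adjustment over all of them. A gene was represented by its probe with the highest average log2 intensity, and 8166 genes without a chromosome in the reference table and 735 on X, Y or the mitochondrial genome were left out. In 8 of 8373 genes with several probes, probes were called in opposite directions. The steps were tested on simulated data. The number of arrays limits the precision.

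The members and gene lists were chosen with earlier results of these data known. Genes named are the lung markers, the 15 largest ratios on each side, the 10 largest bounds on each side, the 10 largest SDs and, in each list, called members among the 4 largest or 4 smallest, or any member of a list of up to 12. Kdr, Foxj1, Nkx2-1, Eln, Aqp5, Aqp1, Marco, Hoxa9, Ryr2, Nppb, Cd3e, Cd3g, Cdkn2a, Cdkn1a and Cdkn1b were named after their values were seen. Alternatives changed the threshold, test, background correction, normalization, filter, probe choice and flags, or left out each array.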

Additional observations from a re-analysis of the deposited data

Results flagged for a closer look

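Values are given here where the highest or lowest of the 5 arrays lay far from the nearest of the others relative to the whole range (Dixon's criterion of 0.71 for 5 values). Of 205 genes and 48 list medians, 26 and 4 passed it. Chance passes about 1 in 20 groups of values, but the share here cannot be read against that, because 10 of the genes were named for their large spread between arrays, and genes are not independent. Over all 18769 autosomal genes, the far array was array 1 in 717 genes, array 2 in 201, array 3 in 143, array 4 in 349 and array 5 in 103.

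Array 1 was the high one for 15 genes. Its log2 ratios were 3.50 for Saa3, 3.51 for Saa1, 3.32 for Cxcl10, 4.51 for Ch25h, 1.28 for Cxcl1, -0.035 for Ccl2, 1.02 for Ccl4 and 0.094 for Ccl7. The next were 0.37 for Acod1, 0.76 for Mt2, 5.96 for Il1b, 4.03 for Lcn2, 3.79 for Ccl17 and 3.22 for Ccr2. The reference signal of Ccr2 was above background on 0 arrays. Last came Myc at -2.78, against -3.80 to -3.59 on arrays 2 to 5. Array 1 was also high in the medians of neutrophils and their precursors (2.79), the interferon response (1.49) and tissue macrophages and activated myeloid cells (0.76). It was low for Cavin2 at 2.75, against 2.98 to 3.04 on the other arrays, and for Col3a1 at -2.16.

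Array 4 was the low one for 7 genes and for 1 list. It had 6.19 for Hc, 6.66 for Ptprb, 5.30 for Ces1d, 5.13 for Cyp4b1, 3.85 for Cldn3, 4.27 for Tbx2 and -1.72 for Cavin4, and 0.76 for the median of conjugating and antioxidant enzymes. Each of these genes was called in the same direction without array 4. Array 2 was high for C2 at 3.67, against 3.29 to 3.37, and array 3 low for Hoxa10 at -3.03, against -2.52 to -2.33. Lung was above background for Hoxa10 on 0 arrays, so its differences between arrays rest on a dim channel. What sets these arrays apart was not tested.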

How the results depend on the processing

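The numbers of genes called depended most on the threshold. With adjusted p alone, 6783 genes were higher and 5448 lower. With a fold over 1.5 there were 4080 and 2918, and with a fold over 4, 1190 and 449. The exact signed-rank test called 0 genes in either direction, also at an unadjusted p under 0.05, since 5 arrays allow no p below 0.0625, whereas limma's treat against a log2 ratio of 1 called 2151 and 1087. Median centring without loess gave 3803 higher and 949 lower, so that 80% of calls were higher in place of 62.8%, and the scanner software's own ratios gave 3675 and 2903. Leaving out each array in turn gave 2652 to 2764 higher and 1565 to 1614 lower. Of 205 named genes, 184 stayed on their side of the threshold under all 12 alternatives that were run for single genes, and none turned from called higher to called lower or back. With a gene's probes averaged, 9 lost their call, which were Cavin1 (0.53), Col3a1 (-0.67), Cyp1b1 (-0.93), Dntt (-0.83), Hoxa4 (0.78), Hoxb2 (0.68), Nr1d1 (-0.59), Pdgfra (0.73) and Plagl1 (0.95). With median centring Afp, Cdkn2c, Pf4 and Wt1 did, at -0.87, -0.67, -0.67 and -0.74, and the uncalled Cd3e, Cd3g and Ryr2 changed sign, to 0.02, 0.08 and -0.002. With the scanner ratios Nppb was called lower at -1.52 and Ccl17 lost its call at 1.54. The cause was not tested. Of 48 list medians, 46 moved by more than 1 SD between arrays under some alternative, 36 of them with the scanner ratios and 34 with median centring. The scanner ratios raised T and natural killer cells from 0.85 to 3.47, claudins and aquaporins from 0.47 to 2.01, B and plasma cells from 0.26 to 1.73 and liver from 0.26 to 1.28, and averaged probes brought caveolae from 1.5 to 0.55 and fibrillar collagens from -1.40 to -0.67. Still, 41 medians kept their sign, and the 7 that changed it were the respiratory chain, activated myeloid cells, brain, developing lymphocytes, germ cells, kidney and skin. Scan day was not fitted as a random block, since the 5 arrays were scanned on 4 days and only 2 of them shared a day. No paired analysis was possible because each lung ratio comes from its own array and the smoke arrays were not used. Signal over background limits the genes dim in 1 channel, whose ratios are bounds and not estimates, and 1937 genes were above background in neither channel on any array.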
